A study of Rattus norvegicus with 7 samples.

Results

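Along chromosome 1 of the rat, beyond 80 Mb, the annotation behind these data holds 260 gene models with a single exon, a length of 900 to 990 bases and a length divisible by 3, which is the size and structure of an odorant receptor coding sequence. They were chosen by position and structure alone, with no measured value, out of 29630 models, leaving out the block of V1R models that the authors placed ahead of the genome-ordered annotation. The tissue was vomeronasal epithelium of 7 male LEW/Crl rats, an inbred Lewis strain, aged 8 weeks and cleared of blood with heparin solution before dissection, each sequenced as 1 library. All rats belong to 1 group with no treatment label, and models were compared within animals, with 7 animals as the replicates. Library totals ran from 64085829 to 74924005 counts. The files give these models by Ensembl identifier only, so that the receptor class is inferred from structure and was not checked against a gene name.

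Odorant receptors are G protein-coupled receptors of the main olfactory epithelium, encoded by a very large gene family that stands in tandem clusters, each gene with its coding sequence in a single exon. A mature olfactory neuron as a rule expresses one allele of one such gene. Neurons of the vomeronasal organ, a separate chemosensory structure of the nose, instead use mainly the vomeronasal receptor families V1R and V2R, and only some odorant receptors are known to be transcribed there. Other receptor families, the Mas-related receptors of sensory neurons among them, also have single-exon coding sequences of near this size.

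Most of these models had few or no counts in the vomeronasal epithelium. A model counted as detected when 4 or more of the 7 rats had 10 or more counts. This held for 20 of the 260 members, or 7.69% (exact Clopper-Pearson 95% interval 4.76% to 11.6%), against 56.3% of all 29630 models and 16.8% of the 8154 single-exon models outside the V1R block. Another 68 members, 26.2%, had no count in any rat, beside 20.8% of all models and 47.7% of the single-exon models outside the V1R block. The remaining 172 had a count but fell short of detection. The count of detected members depended on the minimum: it was 40 with at least 3 counts, 12 with 10 counts in all 7 rats, and 5 with at least 1 CPM in 4 rats, where CPM is the count scaled to a common library total.

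Together the members took 37.2 ± 4.02 CPM (SD, n = 7), that is 0.00372% ± 0.000402 of each library. The lowest rat had 31.7 CPM (rat 1) and the highest 43.4 CPM (rat 5). On average 2572 counts per rat fell on the members. A single model, ENSRNOG00000030807, held 61.0% of all member counts, the next 19 detected models 30.1%, and the 240 undetected models 8.91%. In tissue libraries such as these, fewer cells of a type and less RNA per cell cannot be told apart. In a rat, 3 counts correspond to 0.0400 to 0.0468 CPM, and to 0.00622 CPM over the group.

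**Figure D1:**
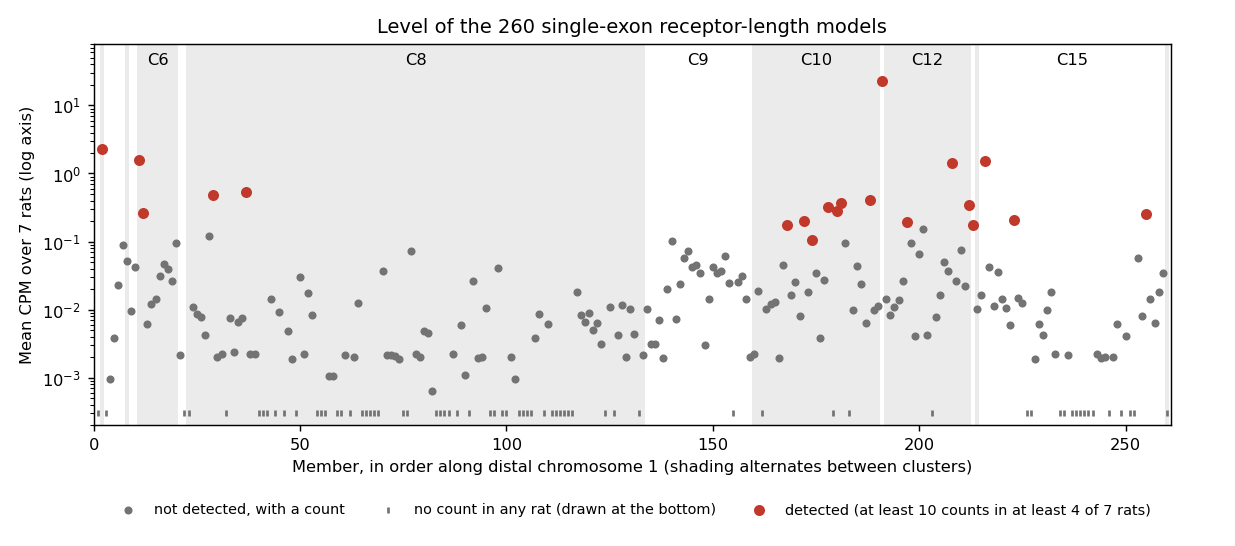
Mean CPM over 7 rats (log axis) of each of the 260 models, in their order along distal chromosome 1, with shading that alternates between clusters and labels on clusters of 10 or more models. Red points are the 20 detected models, grey points the models with fewer counts, and ticks at the bottom the 68 models without a count.

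Members were grouped by position into clusters, runs in which neighbouring models lay at most 500 kb apart. This gave 16 groups, numbered C1 to C16 along the chromosome, of which 7 were single models standing alone, 3 held 2 to 5 models and 6 held 10 or more. The 6 large clusters contained 244 members, of which 17 were detected (6.97%, exact 95% interval 4.11% to 10.9%). None of the 9 members in the small groups C3, C5 and C7 was detected, which leaves an upper limit of 33.6%. Of the 7 models standing alone 3 were detected (42.9%, 9.9% to 81.6%), among them the highest and the second highest member.

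The largest cluster was also among the quietest. C8, with 111 models over 2.94 Mb (160145884 to 163081489, RGSC3.4), had 2 detected members (1.80%, exact 95% interval 0.219% to 6.36%), and 45 of its models had no count in any rat. Its summed level was 1.65 ± 0.611 CPM (SD, n = 7). C9, with 26 models at 163776673 to 164460796, had no detected member (upper limit 13.2%), although only 1 of the 26 was without a count. C15, with 45 models over 2.39 Mb (214671613 to 217065290), had 3 detected members (6.67%), and 14 of its models had no count.

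The most detected models were in C10. This cluster, with 31 models at 165239727 to 166549231, had 7 detected members (22.6%, exact 95% interval 9.59% to 41.1%). C6, with 10 models at 142339329 to 142923868, had 2 (20%, 2.52% to 55.6%), and C12, with 21 models at 199965626 to 200858898, had 3 (14.3%, 3.05% to 36.3%). These intervals treat models as independent draws, and the differences between clusters were not tested. The median model was low in each large cluster, from 0.00203 CPM in C8 to 0.0352 CPM in C6, beside 0.727 CPM over all models. Mean summed levels of C6, C10, C12 and C15 lay close together, although these clusters hold 10 to 45 models. They were 2.10 ± 0.360, 2.29 ± 0.425, 2.60 ± 1.92 and 2.36 ± 0.618 CPM (SD, n = 7). Single rats ran from 0.749 to 6.53 CPM in C12, and its mean without rat 5 was 1.95 CPM.

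Of the 20 detected members 17 had another member next to them in their cluster, and for 4 of these 17 (23.5%) such a neighbour was detected. The same held for 26 of the 236 undetected members with a neighbour (11.0%), a difference that was not tested. The sets compared differ in their mix of clusters: C8 holds 2 detected and 109 undetected members, C10 7 and 24. Each pair of detected neighbours was counted from both sides. The 4 were ENSRNOG00000033009 and ENSRNOG00000032371, 23.2 kb apart on the minus strand in C6, and ENSRNOG00000033306 and ENSRNOG00000028923, 39.5 kb apart on the plus strand in C10. ENSRNOG00000018551 in C8, at 0.558 ± 0.165 RPKM, lay 3.13 kb from ENSRNOG00000031787, which had 0.00784 RPKM (RPKM is CPM per kilobase of model, the scale used here to compare models). No detected member overlapped another model. Both strands were equally represented, with 10 detected members of 131 on the plus and 10 of 129 on the minus strand.

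The most abundant member was ENSRNOG00000030807, which stood alone (C11, chromosome 1, 175179440 to 175180408, minus strand, 1 exon of 969 bases). It had 21.1 CPM in the lowest rat, 23.3 in the median and 24.6 in the highest, and the 7 rats lay within a 1.17-fold range. Its mean was 23.5 ± 1.44 RPKM (SD, n = 7), and it ranked 5621 among all models by CPM. Its nearest model lay 75.6 kb away and the nearest detected one, with 10 exons, 507 kb away. Its counts were not whole in every rat, so that some of its reads also mapped elsewhere. It is therefore set apart from the clusters by both its position and its level, and its inferred receptor class rests on length and exon number only.

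ENSRNOG00000037366 also stood alone (C2, 90898957 to 90899880, plus strand). Its level ran from 1.96 CPM (rat 6) over a median of 2.41 to 2.59 CPM (rat 7), with a mean of 2.51 ± 0.248 RPKM (SD, n = 7). The nearest detected model lay 53.5 kb away. The last detected model standing alone, ENSRNOG00000020735 (C13, 204171075 to 204172004), was low, at 0.106 to 0.267 CPM with a median of 0.156. It lay 15.2 kb from ENSRNOG00000020736, a model of 21 exons on the same strand with 2.95 RPKM. The 4 other models standing alone were undetected, and ENSRNOG00000024009 and ENSRNOG00000029157, the first and last members by position, stayed at 0 counts throughout, and 0 counts leave room for 0.00622 CPM over the group.

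Among clustered models the leaders of C6 and C15 were nearly equal. ENSRNOG00000033009 (C6, 142339329 to 142340252) had 1.22 CPM in the lowest rat, 1.6 in the median and 1.92 in the highest, or 1.69 ± 0.281 RPKM, and supplied 74.3% of the summed CPM of its cluster. ENSRNOG00000021050 (C15, 214724237 to 214725166) had 1.07, 1.56 and 1.96 CPM, or 1.65 ± 0.443 RPKM (SD, n = 7 each), and supplied 65.0% of C15. Both had whole counts in all rats. Each of these clusters was thus carried by 1 model, whereas in C10 the highest of 7 detected members supplied 17.6%.

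C10 held the broadest set of detected members, all at low levels. Its highest, ENSRNOG00000033367 (166471528 to 166472508), had 0.250 CPM in the lowest, 0.433 in the median and 0.490 in the highest rat. ENSRNOG00000028923 followed at 0.365 ± 0.0730 CPM, ENSRNOG00000029093 at 0.325 ± 0.0648 and ENSRNOG00000033306 at 0.280 ± 0.104 (SD, n = 7 each). The other 3, ENSRNOG00000036787, ENSRNOG00000032030 and ENSRNOG00000029781, lay between 0.106 and 0.203 CPM on average and reached 10 counts in 4 or 5 rats only.

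In C12 the leading model, and in C8 the second of the detected models, were very uneven between rats. ENSRNOG00000033288 (C12, 200720729 to 200721685) had 0.281 CPM in the lowest rat, 1.30 in the median and 4.11 in the highest, a 14.6-fold range. ENSRNOG00000032909, at the distal end of the same cluster (200857942 to 200858898), ran from 0.0624 over 0.293 to 0.948 CPM, a 15.2-fold range. ENSRNOG00000015444 in C8 (160489681 to 160490646) ran from 0.160 over 0.356 to 1.39 CPM. All 3 were highest in rat 5. By contrast ENSRNOG00000018551, the other detected model of C8 (160647966 to 160648919), had 0.302, 0.534 and 0.75 CPM and was highest in rat 3. The remaining detected members were ENSRNOG00000031626 in C12 and ENSRNOG00000023530 and ENSRNOG00000021073 in C15, at 0.195 to 0.253 CPM on average.

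The order of the 10 highest members was tested between neighbours, as the log2 ratio of RPKM within each rat. ENSRNOG00000030807 exceeded ENSRNOG00000037366 by 9.39-fold and the latter exceeded ENSRNOG00000033009 by 1.5-fold, each in 7 of 7 rats. In an exact two-sided permutation test that flips signs over rats, both reached p = 0.0156, which is the lower limit with 7 rats. Adjusted over the 9 pairs both came to 0.0703, so that 0 of 9 neighbours differed at 0.05 after adjustment and 2 of 9 did before it. As p cannot fall below that limit, neither pair could pass unless more of the 9 reached it. ENSRNOG00000033009 and ENSRNOG00000021050 differed by 1.05-fold, with 4 of 7 rats in that direction (exact permutation p = 0.578). From the fourth model down, no neighbour was higher in all 7 rats, and the mean ratios ran from 0.949 to 1.99.

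The leading detected models of the 8 groups that had one were compared in the same way, over 7 pairs. Here 3 neighbours differed, each in 7 of 7 rats with an adjusted exact permutation p = 0.0365. ENSRNOG00000030807 (C11) stood above ENSRNOG00000037366 (C2), which stood above ENSRNOG00000033009 (C6), and ENSRNOG00000033367 (C10) exceeded ENSRNOG00000020735 (C13) by 2.25-fold. Between C6, C15, C12, C8 and C10 no neighbouring leaders differed beyond the spread over rats. Leaders farther apart in the order were not tested, but those of C6 and C15, at 1.07 CPM or more in every rat, lay above those of C8 and C10, at 0.75 CPM or less. With clusters split at gaps over 250 kb the order had 9 pairs, of which 0 differed after adjustment and 4 before it.

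Variation between rats was uneven among the members. The median coefficient of variation of the 20 detected members was 33.2%, beside 22.2% for the 3709 detected models with a mean from 0.106 to 2.32 CPM, the range of the members without the highest one. The 20 include that highest member, and levels within the range were not matched between members and the other models. A coefficient above 80% was found in 3 members, namely ENSRNOG00000033288 at 90.2%, ENSRNOG00000015444 at 88.9% and ENSRNOG00000032909 at 86.6%, and in 3.21% of the 3709 models (this value and the range were chosen after the levels were seen). ENSRNOG00000030807 and ENSRNOG00000037366 were steady, at 6.14% and 9.89%. In edgeR's dispersion fit over 16670 detected models the median ratio of a model's own dispersion to the trend at its level was 0.868 for members and 0.537 for the models of that range. The ratio was above 1 in 9 of 20 members (45%) and in 21.4% of those models. Leaving out single rats moved the members' median ratio between 0.728 and 1.20.

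**Figure D2:**
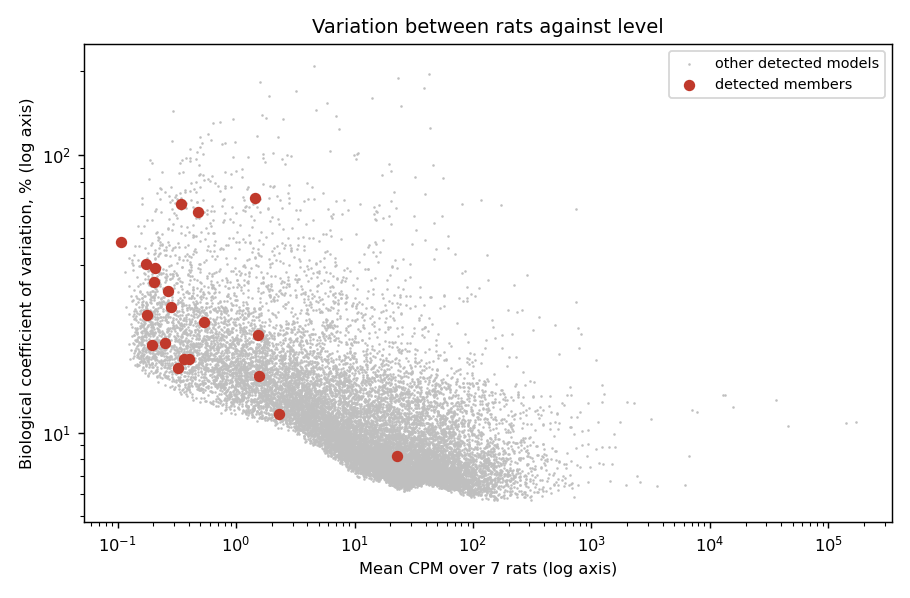
Biological coefficient of variation between rats (in percent, from edgeR's tagwise dispersion) against mean CPM, both on log axes, for the 16670 detected models. The 20 detected members are red and all other models grey. ENSRNOG00000033288, ENSRNOG00000015444 and ENSRNOG00000032909 lie at 62.2% to 70.2%, above most models of their level.

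The 3 most variable members stood out in rat 5. Against the median of the other 6 rats, its level was 4.78-fold higher for ENSRNOG00000015444, 4.0-fold for ENSRNOG00000032909 and 3.77-fold for ENSRNOG00000033288. Without rat 5 their coefficients of variation fell to 47.9%, 60.3% and 59.7%. A fall follows from the choice of these 3 as the most variable members, all highest in the rat left out. By Dixon's test for a single outlying value, 4 of the 20 detected members had a rat apart from the other 6, these 3 among them, beside 8.39% of all detected models. Of the 20 detected members 5 were highest in rat 5, beside 6.14% of all detected models. The summed level of C12 was 6.53 CPM in rat 5 and 0.749 to 3.04 CPM in the others, while C10 and C15 had 2.31 and 2.35 CPM in rat 5, inside the range of the other rats. Of the C12 sum in rat 5, ENSRNOG00000033288 and ENSRNOG00000032909 supplied 4.11 and 0.948 CPM. Rat 5 was also the highest rat in C8, at 2.59 CPM, of which ENSRNOG00000015444 supplied 1.39 CPM. Rat 5 was highest in C9 too, at 1.25 CPM, and in the summed level of the 240 undetected members, at 4.50 against 2.20 to 3.73 CPM. Its library, with 70449854 counts, lay inside the range of the others, and its intact V1R level was 485 CPM, where the others ran from 383 to 639.

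At the other end, rat 6 had the lowest value for 10 of the 20 detected members, beside 23.1% of all detected models. It also had the lowest intact V1R level, 383 CPM, and the fewest members with a count, 86 against 93 to 125 in the other rats. What part the dissected tissue of a rat had in these differences was not tested.

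**Figure D3:**
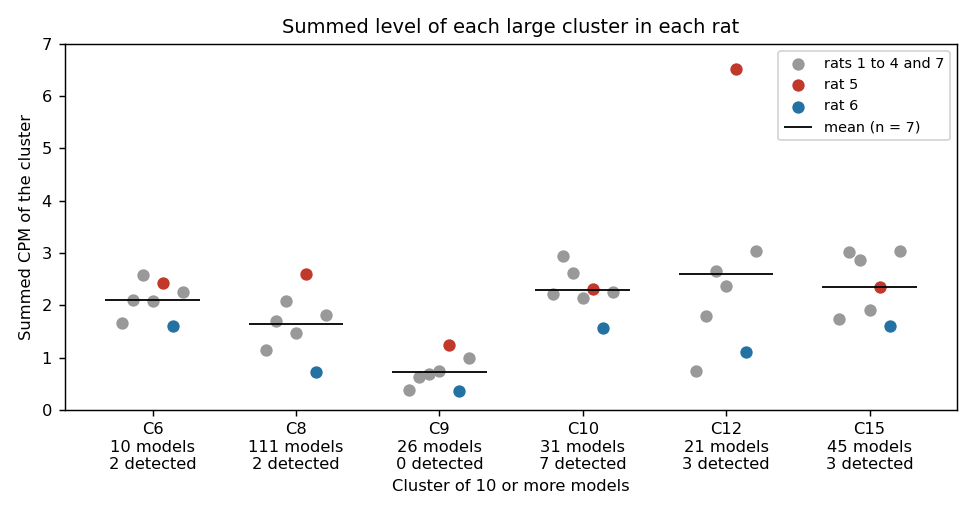
Summed CPM of the 6 clusters of 10 or more models in each of the 7 rats, with rat 5 in red, rat 6 in blue, the other rats in grey and the mean as a line. C12 reaches 6.53 CPM in rat 5 against at most 3.04 CPM in the other rats, and rat 5 lies among the others in C6, C10 and C15.

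The 10 highest members were set, over the 7 rats, against the summed level of 109 intact V1R models, a receptor family of vomeronasal neurons. ENSRNOG00000037366 moved with it, with Pearson's r = 0.980 (exact permutation p = 0.000595, adjusted over the 10 relations 0.00595) and Spearman's rho = 0.964 (exact permutation p = 0.00278, adjusted 0.0278). Adjusted over all 16670 detected models its exact permutation p was 0.0224. Such a relation was common: 8.82% of all detected models passed that adjusted threshold and 30.9% had an unadjusted p of at most 0.05. An r as high was found in 141 models, 0.846%. The models counted over include the 102 detected intact V1R models, which are parts of the sum itself. Without rats 6 and 7, the farthest from the median V1R level, r was 0.95 (exact permutation p = 0.025, n = 5). With TMM scaling it was 0.911 (exact permutation p = 0.00813), which no longer passed after adjustment over the 10 relations. ENSRNOG00000037366 and 70 of the 109 intact V1R models held fractional counts, from reads that also mapped elsewhere. What part shared reads had in this relation was not tested.

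None of the other 9 passed after adjustment. ENSRNOG00000021050 had r = 0.785 and rho = 0.75 (exact permutation p = 0.0468, adjusted 0.182, and p = 0.0663, adjusted 0.221). ENSRNOG00000018551 had r = 0.744 and rho = 0.857 (exact permutation p = 0.0546, adjusted 0.182, and p = 0.0238, adjusted 0.119). ENSRNOG00000030807 had r = -0.15 and rho = 0 (exact permutation p = 0.743, adjusted 0.826, and p = 1, adjusted 1). Its r depended on the scaling, at -0.854 with TMM factors (exact permutation p = 0.0165) and -0.812 with totals that leave out the 10 most abundant models (p = 0.0198). The 3 most variable members had r of 0.0720 to 0.222 with intact V1R models.

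After rat 5 had been seen to stand apart, the same 10 members were also set against the summed level of the 265 models of the same structure on chromosome 3, which share no model with them. This sum was itself highest in rat 5, so that p-values for members high in rat 5 are not independent of that choice. Of the 265 models 44 held fractional counts, as did ENSRNOG00000033288 and ENSRNOG00000032909. What part shared reads had in these relations was not tested. ENSRNOG00000033288 had r = 0.926 (exact permutation p = 0.00317, adjusted over 10 relations 0.0317) and rho = 0.857 (p = 0.0238, adjusted 0.119). Adjusted over all detected models its p was 0.692, as 0 of 16670 models passed there and 6.56% had an unadjusted p of at most 0.05. Without rats 5 and 7, the farthest from the median chromosome 3 sum, r was 0.625 (exact permutation p = 0.267, n = 5). So few rats cannot tell whether the relation rested on those left out. ENSRNOG00000033009 had r = 0.862 (exact permutation p = 0.0115, adjusted 0.0575) and rho = 0.893 (p = 0.0123, adjusted 0.119), and its r was 0.845 without rats 5 and 7 (exact permutation p = 0.0917, n = 5). ENSRNOG00000015444 (r = 0.863) and ENSRNOG00000032909 (r = 0.820) did not pass after adjustment either, at 0.0582 and 0.0729 over the 10 relations in the exact permutation test. The chromosome 3 sum itself was 18.1 CPM in rat 5 and 8.80 to 14.8 CPM in the other rats.

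**Figure D4:**
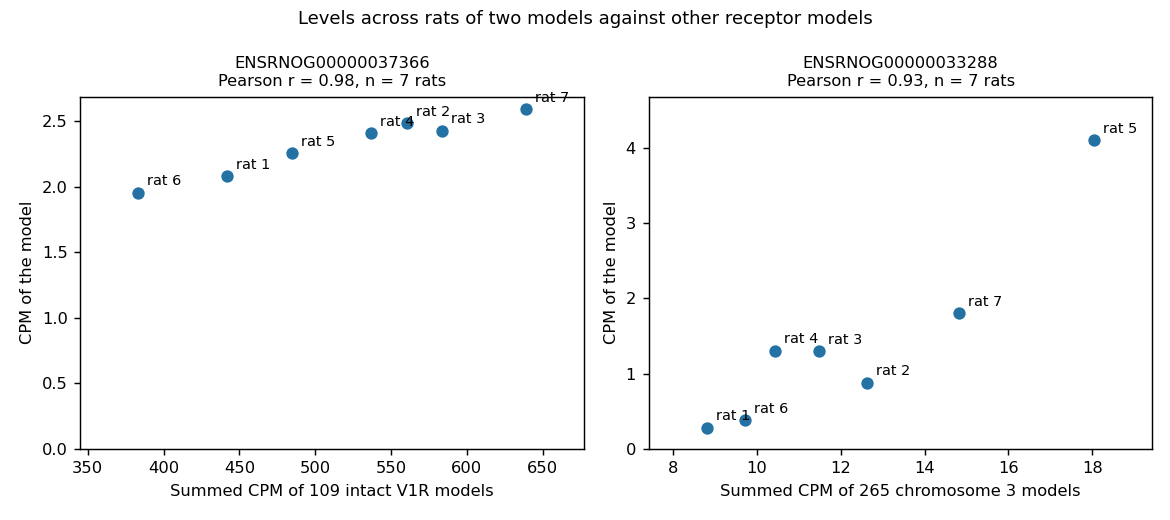
Left, CPM of ENSRNOG00000037366 against the summed CPM of 109 intact V1R models in the 7 rats (r = 0.98). Right, CPM of ENSRNOG00000033288 against the summed CPM of 265 chromosome 3 models of the same structure (r = 0.93), where rat 5 lies far above the other 6 rats.

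Models of the same structure elsewhere were also mostly undetected. On chromosome 3, 8 of 265 were detected (3.02%, exact 95% interval 1.31% to 5.86%) with a summed level of 12.3 ± 3.23 CPM (SD, n = 7). In all other places, 81 of 629 were (12.9%, 10.4% to 15.7%), with a summed level of 575 ± 43.0 CPM. Of the intact V1R models, by contrast, 102 of 109 were detected. Their summed level of 519 ± 87.7 CPM lay near that of the 629 models. The members other than ENSRNOG00000030807 together reached 9.34 to 20.1 CPM in a rat. These differences between groups of models were not tested.

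Shared reads bear on part of these levels. Counts were whole in every rat for 201 members, 68 of them at 0, and held fractions for 59, which means that some of their reads also mapped to another place. A count was taken as whole within 1e-09, and fractions that add up to a whole number are not seen by this rule. Of the 20 detected members 11 had whole counts (55.0%, beside 69.2% of all detected models), among them ENSRNOG00000033009, ENSRNOG00000021050, ENSRNOG00000018551 and ENSRNOG00000015444. The other 9, ENSRNOG00000030807, ENSRNOG00000037366, ENSRNOG00000033288 and ENSRNOG00000032909 among them, are uncertain by the share of such reads. In 70 members the counts equalled those of another model in every rat, but none of these was detected and none exceeded 8 counts over all rats. The structural limits had neighbours on both sides: in the same stretch of chromosome 1, 3 of 7 slightly shorter and 3 of 10 slightly longer single-exon models were detected, and within the limits 6 of 28 of at most 930 bases and 5 of 56 of at least 960 bases.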

How the data were processed

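Vomeronasal epithelium of 7 rats was measured by stranded polyA RNA sequencing, single-end, 100 nucleotides, per the labels' protocols. The submitters' processing notes name STAR 2.7.1a and featureCounts 1.6.5, while the file headers give featureCounts 1.6.3. Per the file headers, the authors deposited estimated counts for each model of an annotation built on Ensembl release 67 (RGSC3.4), with models of their own added: exon reads on the matching strand (setting 2), minimum mapping quality 0, reads mapped to several places counted at each as fractions. PolyA selection leaves out other RNA.

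CPM and RPKM were computed here from counts, library totals and the model lengths given with the counts. The dispersion fit used edgeR 4.0.16 (R 4.3.3) with TMM factors and an intercept on counts rounded to whole numbers. DESeq2 1.42.0 size factors were an alternative. Order tests and correlations were exact permutation tests over rats, two-sided, with Benjamini-Hochberg adjustment, in Python 3.11.15 (numpy 2.4.6, scipy 1.17.1). The steps were tested on simulated data. Named models are the detected members, group leaders and the first and last by position, plus undetected ones named after their values were seen. Members and lists were chosen with earlier results of these data known. None of the 260 identifiers matched the reference gene table, so cell type markers were not checked. A count of 0 allows 3 counts. Intervals on shares of models treat models as independent draws, and the floor of 3 counts covers counting error only. No library repeated another: chi-square over degrees of freedom was 11.4 to 106 in the 21 pairs.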

Additional observations from a re-analysis of the deposited data

Results flagged for a closer look

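Dixon's test, at its 95% critical value, was run on 35 levels and sums, and in 6 of them 1 rat lay apart, 4 times rat 5. Chance alone marks about 1 in 20 values, and 8.39% of all detected models were marked. ENSRNOG00000033288 had 4.11 CPM in rat 5 against at most 1.80 CPM elsewhere, with the gap at 0.601 of the whole range. ENSRNOG00000015444 had 1.39 CPM in rat 5 against at most 0.540 CPM (gap 0.691 of the range), and ENSRNOG00000032909 had 0.948 CPM against at most 0.442 CPM (gap 0.571). The summed level of C12, which contains the first and last of these, was 6.53 CPM in rat 5 against at most 3.04 CPM (gap 0.604). ENSRNOG00000029093 in C10 was high in rat 3 instead, at 0.455 CPM against at most 0.334 CPM (gap 0.589). C7 had 0.0148 CPM in rat 4 and none elsewhere, which is 1 count.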

How the results depend on the processing

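The detected members numbered 40 with a minimum of 3 counts, 12 with 10 counts in all 7 rats, 5 at 1 CPM, 11 with whole counts only and 18 to 20 with each rat left out. The members' share of counts became 0.00683% without the 10 most abundant models in the total, 0.000801% with whole counts only and 0.00145% without ENSRNOG00000030807 (chosen after seeing the data), each by construction of the alternative, and lay between 0.00362% and 0.00381% with each rat left out. The median dispersion ratio of 0.868 was 0.666 without a filter on low counts (the cause was not tested) and 0.728 to 1.20 with each rat left out. Among the 10 highest members, 0 of 9 neighbours differed under every alternative run; with 6 rats the smallest p is larger still, so that leaving out a rat says nothing about stability. The 3 differences between group leaders became 0 with gaps over 250 kb. The 1 correlation with intact V1R models that passed over 10 relations became 0 with TMM factors, 0 without the 10 most abundant models and 0 without the rats farthest from the median, where only 5 rats remain. For ENSRNOG00000037366 r stayed at 0.911 to 0.980. For ENSRNOG00000021050 r no longer passed the unadjusted threshold in all 3 (0.619 to 0.680). All 40 mean levels under TMM or DESeq2 factors moved by less than 1 SD. Both sets of factors keep the average scale over the rats, so that mean levels could hardly move. Without the 10 most abundant models in the total, 17 of 20 mean levels moved by 1 SD or more, by construction of the alternative. At these depths, levels below 0.0400 to 0.0468 CPM could not be told from 0 in a single rat. Models were paired within rats in the order tests. No pairing between groups of rats was possible because all rats form 1 group.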

Other observations

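Below the limit of detection, 9 undetected members reached 10 counts in at least 1 rat. The highest, ENSRNOG00000032796 in C12, had 0.440 CPM in rat 5 and a median of 0.134 CPM over the rats. ENSRNOG00000018501, next to ENSRNOG00000015444 in C8, had 0.119 ± 0.0758 CPM (SD, n = 7), and ENSRNOG00000029365 in C9 had 0.102 ± 0.0547 CPM. The last supplied 14.1% of the summed level of C9, so that the counts of this cluster were spread over many models without a leader. In C8 the 109 undetected models together had 0.636 CPM, less than its 2 detected ones.

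Among the chromosome 3 models of the same structure, ENSRNOG00000006771 (chromosome 3, 74444721 to 74445647) had 2.38 CPM in rat 5, 0.903 in rat 7 and 0.166 in rat 6. ENSRNOG00000006819, 74499825 to 74500733, had 0.554 CPM in rat 5 and 0.0546 in rat 1. The highest chromosome 3 model, ENSRNOG00000016037, was highest in rat 7, at 4.66 CPM.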
